A study of Homo sapiens with 27 samples.

Results

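LNCaP95 is a hormone-insensitive prostate cancer cell line derived from LNCaP cells, and the 9 RNA-seq libraries of this line were 9 of the 27 libraries in the series. They were chosen by the cell line named in the sample label. The 3 groups of 3 libraries carried a lentiviral pGIPZ hairpin, which was a non-silencing hairpin (CTRL sh), CPSF1 sh1 or CPSF1 sh2. All cells had been infected, selected with puromycin and kept in phenol red–free RPMI 1640 with fetal bovine serum, and 500000 cells were plated and grown for 72 h before RNA was taken. The CTRL sh cells therefore shared the vector, the drug selection and the medium with the knockdown cells. The study calls the libraries biological replicates, and nothing says whether they came from separate infections. The p-values therefore set each change against the spread between these libraries only. With the 2 hairpins pooled, this spread includes the difference between them.

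CPSF1 is the largest subunit of the cleavage and polyadenylation specificity factor, the complex that recognizes the AAUAAA signal, cuts the nascent mRNA and allows a poly(A) tail to be added. An mRNA that is not cut at its usual site can be extended, degraded or left in the nucleus, and short-lived mRNAs need constant new 3′ end formation to hold their level. Prostate luminal cells depend on androgen signaling, lipid synthesis and a large secretory load. The comparison of CPSF1 sh with CTRL sh asks which mRNA levels differ when CPSF1 is lowered in this line. It does not separate direct from indirect effects, which the paper also leaves undetermined. The genes are described here by function, through 46 lists with 1501 genes, of which 1230 were tested.

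Libraries held 10697514 to 15904518 counts on annotated exons, and genes were tested when they exceeded 2 CPM (counts per 1e6 counts) in all 9 libraries. Of 13 luminal prostate markers, 13 passed this filter. No basal marker of 4, endothelial marker of 3 or neuroendocrine marker of 4 passed. COL1A1, ACTA2 and the macrophage and lysosomal marker CD68 passed among 12 stromal and leukocyte markers, while PTPRC and CD3E did not exceed 0.279 CPM and DCN and LUM had no count. The summed fibroblast and smooth muscle markers were at 70.9 to 88.5 CPM in CTRL sh and 113 to 135 CPM in CPSF1 sh, and this rise came with ACTA2, a smooth muscle actin, at 11.9 to 13.3 CPM in CTRL sh and 53.6 to 85.0 CPM in CPSF1 sh (log2 fold change 2.39, SE 0.186), whereas COL1A1 fell by 0.40. The summed luminal markers were at 8250 to 8420 CPM in CTRL sh and 6010 to 6380 CPM in CPSF1 sh. CD68 rose by 1.64. The part of these shifts in the results was not tested. In bulk RNA a change in the number of cells in a state and a change in RNA per cell cannot be told apart.

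CPSF1 mRNA was at 127.5, 97.0 and 116.9 CPM in CTRL sh, at 68.2, 57.1 and 58.7 CPM with sh1, and at 61.7, 63.9 and 58.8 CPM with sh2. The 6 knockdown libraries lay below the 3 controls, and the hairpins gave log2 fold changes of -0.89 each when fitted alone. Of all 11143 tested genes 66.9% were called at an adjusted p under 0.05 (edgeR), 33.2% higher and 33.7% lower, which is the background for every list count here. Scaling by library size alone moved the balance to 4685 higher and 2850 lower from 3694 and 3756, with a median of 0.088 over all genes. Of 21 tested 3′ end factors 12 rose and 4 fell, CPSF1 among the latter. With the usual scaling the median log2 fold change over all tested genes was 0.0013. CSTF3, a scaffold subunit of the cleavage stimulation factor that binds the GU-rich element, was at 35.01 to 47.16 CPM in CTRL sh and 102 to 111.4 CPM in CPSF1 sh, a rise of 1.36 on the log2 scale (SE 0.0782). WDR33, which contacts the AAUAAA signal in the same complex as CPSF1, rose by 0.55, and CSTF2 rose by 0.55. NUDT21, the UGUA-binding subunit of cleavage factor Im, fell by 0.41 and the poly(A) polymerase PAPOLG fell by 0.51. CPSF2 and PCF11 were at 0.09 and -0.05 and were not called.

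**Figure D1:**
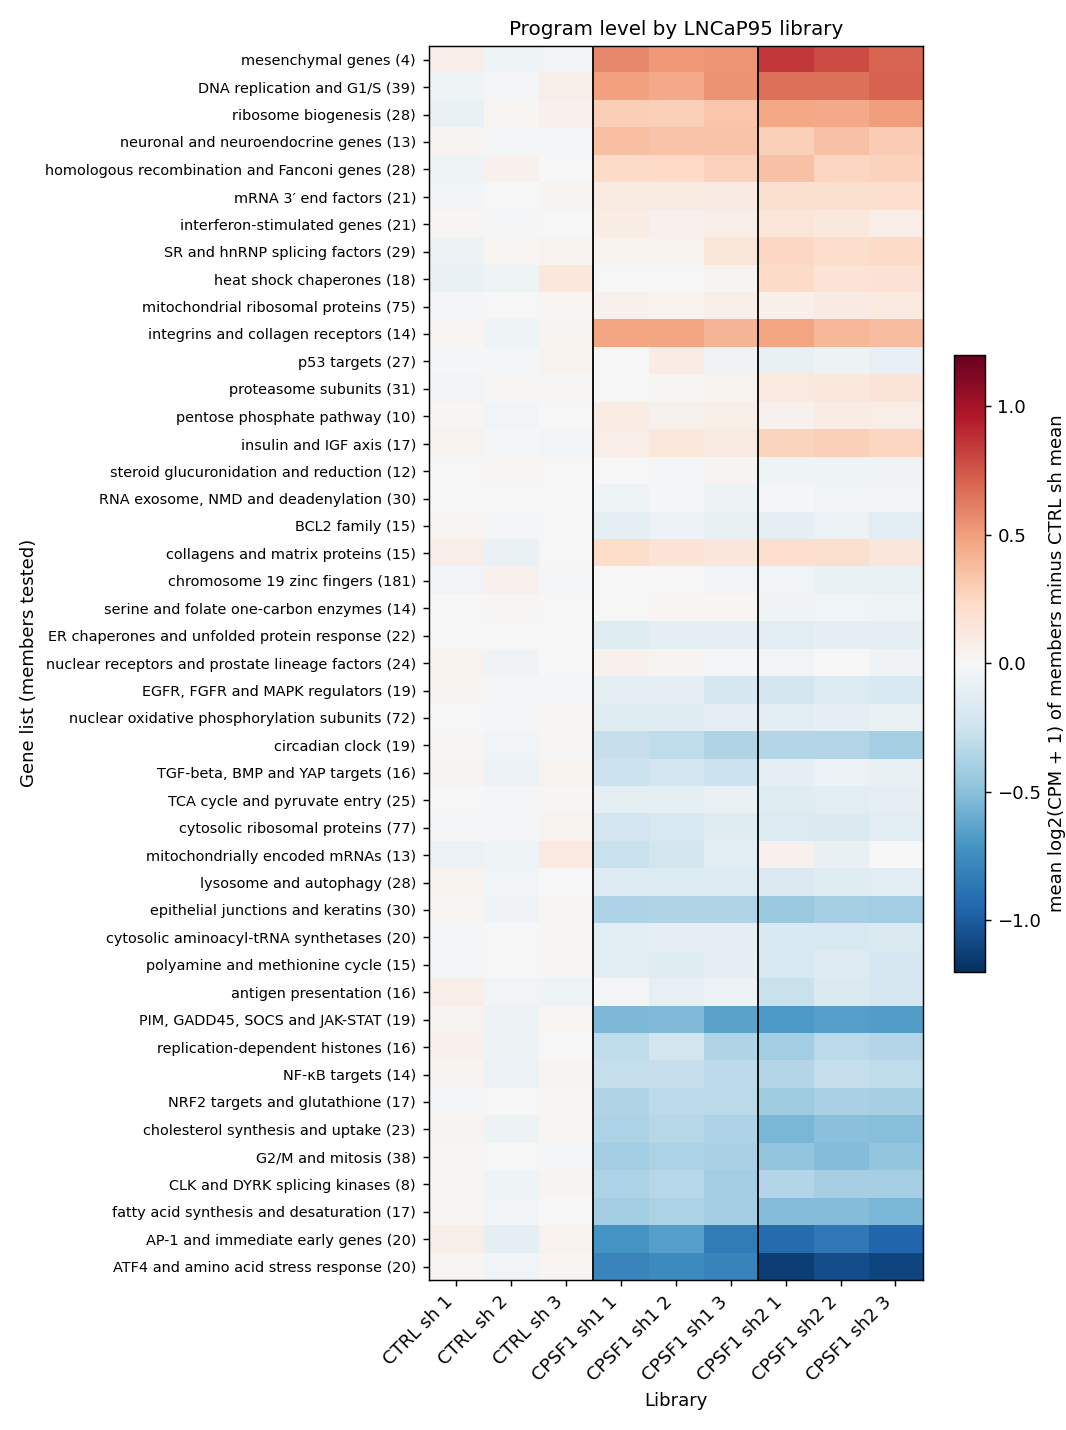
Rows are the gene lists other than metallothioneins, ordered by their median log2 fold change, columns are the 9 LNCaP95 libraries, and color is the mean log2(CPM + 1) of the tested members minus the mean of the 3 CTRL sh libraries. The DNA replication row is red in the 6 knockdown libraries (0.452 to 0.704) and the ATF4 row is blue in all 6 (-1.13 to -0.761).

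The cell cycle genes split by phase. Genes of DNA replication and the G1/S transition, whose products license and fire replication origins, rose together: 32 of 39 tested members rose (82.1%, against 33.2% of all tested genes), 1 fell and 6 were not called, with a median log2 fold change of 0.60. Genes of G2/M and mitosis, whose products build the spindle and drive anaphase, moved the other way: 33 of 38 fell (86.8%, against 33.7%), 2 rose, and the median was -0.43. The mean level of the replication list was 0.452 to 0.704 above the control mean in the knockdown libraries, and that of the mitotic list was 0.379 to 0.521 below it.

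CCNE2, a cyclin that activates CDK2 at the G1/S boundary, was at 11.9, 13.7 and 13.2 CPM in CTRL sh, at 26.6, 28.5 and 31.9 CPM with sh1 and at 38.9, 39.6 and 38.1 CPM with sh2. Every knockdown library exceeded every control, with sh2 above sh1 (log2 fold change 1.39, SE 0.144, adjusted p = 4.27e-06). CCNE1 rose by 1.21 from a control mean of 12.4 CPM. MCM3, a subunit of the replicative helicase, was at 76.9, 76.3 and 92.0 CPM in CTRL sh and at 157 to 204.1 CPM in CPSF1 sh, a rise of 1.14 (SE 0.107). The other helicase subunits MCM2 and MCM4 rose by 0.89 and 0.96, the loading factors CDC6 and CDT1 rose by 0.90 and 0.78, and the transcription factors E2F1 and E2F2 rose by 0.84 and 1.10. RRM1, the large subunit of ribonucleotide reductase, was the member counted as lower (-0.12), and it was not called without CTRL sh replicate 3 (adjusted p = 0.0744) or with library size scaling alone.

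CDC20, the activator of the anaphase-promoting complex, was at 524.2, 449.7 and 525.5 CPM in CTRL sh, at 224.5, 237.8 and 232.2 CPM with sh1 and at 194.6, 206.5 and 209 CPM with sh2. The groups did not overlap, and the log2 fold change was -1.2 (SE 0.0673, adjusted p = 4.73e-08). The kinesin KIF18A was at 33.0 to 38.9 CPM in CTRL sh and 15.7 to 20.9 CPM in CPSF1 sh, and it fell by 0.96. CCNB2 fell by 0.93, the checkpoint kinase BUB1 by 0.92, AURKA by 0.52 and PLK1 by 0.30. ESPL1 (separase) and FOXM1, a transcription factor of G2/M genes, rose by 0.40 and 0.36 against the rest of the list. MKI67, the proliferation marker, was at 0.04 (SE 0.0585) and was not called.

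**Figure D2:**
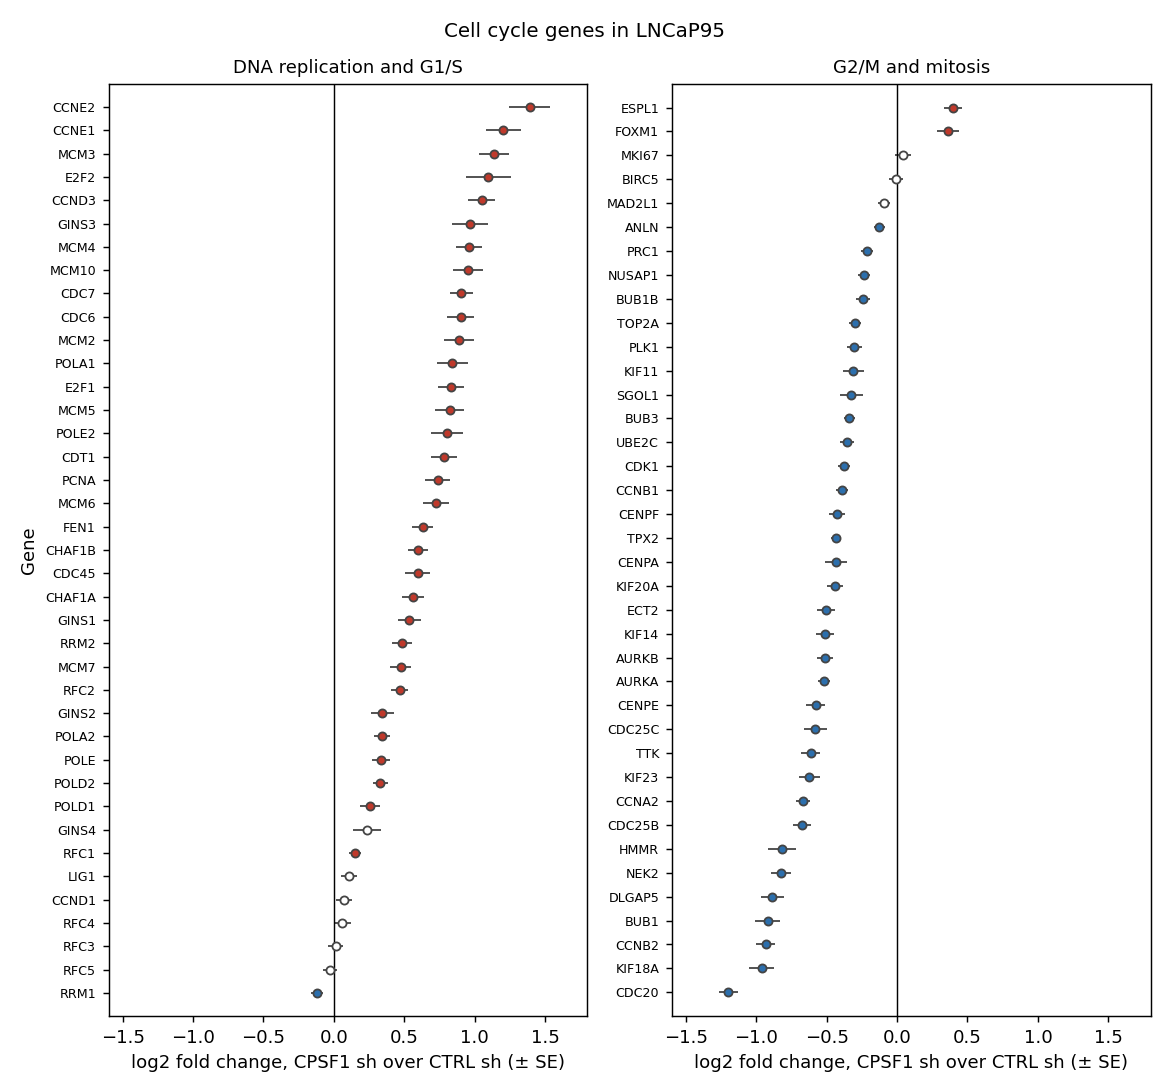
Each point is a tested gene of the replication and G1/S list (left) or of the G2/M and mitosis list (right), placed at its log2 fold change of 6 CPSF1 sh over 3 CTRL sh libraries with bars of 1 SE; filled points were called and open points were not. On the left 32 of 39 points are filled to the right of 0, and on the right 33 of 38 are filled to the left of 0.

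Homologous recombination and Fanconi anemia genes, which repair replication-linked breaks, also rose more often than they fell: 17 of 28 rose, 2 fell, and the median was 0.32. RBBP8, which starts end resection, rose by 0.78 (SE 0.0666) and the nuclease EXO1 by 0.77. BRCA1 and BRCA2 rose by 0.61 and 0.63. RAD54B fell by 0.51. RAD50, the other fall counted, was at -0.16 and lost its call in 7 of the 9 fits that left out a library, and the number of falls ranged from 1 to 4 over these fits. Replication-dependent histone genes are described by the 16 of 71 members that passed the filter, of which 9 fell and 2 rose, with a median of -0.30 that turned to 0.03 without the filter. These mRNAs normally end in a stem-loop without a poly(A) tail, so a poly(A)-selected library holds mainly their tailed forms. HIST1H2BF fell by 1.52 and HIST1H2BD by 1.13, whereas HIST1H2BK rose by 0.79.

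The promoters of these lists are shown because the members of each list moved together. RefSeq promoter windows (GRCh38.p14, 250 bases before to 50 after the start of each gene) were found for 34 of the 39 replication genes and 31 of the 38 mitotic genes. An E2F-like string, TTTNNCGC on either strand, was in 20 of the 34 (58.8%), compared with 6.9% of 27305 promoters and 11% of those of tested genes. The cell cycle homology string TTTGAA was in 21 of the 31 mitotic promoters (67.7%, against 15.4% and 9.27%) and CCAAT was in 26 (83.9%, against 35.7% and 37.3%). The 100-base stretches below belong to the most changed members with a match in each list, and capitals mark the E2F-like string in MCM3 and E2F2 and TTTGAA in CDC20 and KIF18A, on either strand, with 1 overlap in E2F2. CCAAT is not marked. MCM3 is at chr6:52284863-52284962 on the minus strand, E2F2 at chr1:23531257-23531356 on the minus strand, CDC20 at chr1:43358756-43358855 on the plus strand and KIF18A at chr11:28108114-28108213 on the minus strand.
MCM3: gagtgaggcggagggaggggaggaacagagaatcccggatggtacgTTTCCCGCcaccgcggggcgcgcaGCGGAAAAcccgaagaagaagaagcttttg
E2F2: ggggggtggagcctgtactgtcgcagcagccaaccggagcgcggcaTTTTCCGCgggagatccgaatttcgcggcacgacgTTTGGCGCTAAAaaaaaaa
CDC20: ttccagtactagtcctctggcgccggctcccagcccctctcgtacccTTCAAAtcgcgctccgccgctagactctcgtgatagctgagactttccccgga
KIF18A: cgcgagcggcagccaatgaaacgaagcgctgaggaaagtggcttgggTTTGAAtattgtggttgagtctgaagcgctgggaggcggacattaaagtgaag
A match describes letters and shows neither a bound site nor a cause.

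Genes of ribosome assembly rose, while mRNAs of the ribosomal proteins fell slightly. Of 28 ribosome biogenesis genes, which transcribe, modify and assemble ribosomal RNA in the nucleolus, 24 rose (85.7%), 1 fell, and the median was 0.43. NOP56, a core protein of the nucleolar methylation particles, was at 113.1, 126.7 and 130.3 CPM in CTRL sh and at 186 to 248.6 CPM in CPSF1 sh, a rise of 0.83 (SE 0.0948). The RNA polymerase I subunits POLR1B and POLR1A rose by 0.74 and 0.67, and GNL3 (nucleostemin) fell by 0.27. Cytosolic ribosomal protein mRNAs fell in 53 of 77 cases (68.8%) and rose in 1, but the median was only -0.16, and RPS27, the most strongly lowered, fell by 0.55. Scaling by library size alone kept the direction with 32 falls, 2 rises and a median of -0.08. Many ribosomal protein genes have processed pseudogenes that can share their reads, so single values are uncertain. Among mitochondrial ribosomal protein genes 30 of 75 were higher and 15 lower (median 0.09), with 9 lower without CTRL sh replicate 3 and with 43 higher and 6 lower under library size scaling alone.

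The amino acid stress program had the lowest median of the 46 lists. ATF4 is translated when eIF2α is phosphorylated and turns on amino acid transport, synthesis and, under long stress, cell death genes. Of 20 tested ATF4 pathway genes, 19 fell (95%, against 33.7% of all tested genes) and 1 rose, with a median of -0.90, and 6 fell more than 2-fold. ATF4 itself was at 618.1, 623.6 and 650.9 CPM in CTRL sh, at 421.1 to 427.7 CPM with sh1 and at 375 to 395 CPM with sh2, a fall of 0.63 (SE 0.0492). PPP1R15A (GADD34), which directs dephosphorylation of eIF2α, was at 58.5, 53.3 and 67.0 CPM in CTRL sh and at 8.81 to 12.5 CPM in CPSF1 sh, so that the groups were far apart (log2 fold change -2.51, SE 0.0958, adjusted p = 3.12e-09). CHAC1, a glutathione-degrading enzyme, was at 65.3 to 81.0 CPM in CTRL sh, at 23.3 to 26.0 CPM with sh1 and at 15.8 to 16.8 CPM with sh2 (-1.83, SE 0.148). NUPR1 fell by 1.88, the pro-apoptotic factor DDIT3 (CHOP) by 1.44, ATF3 by 1.38, TRIB3 by 0.88 and asparagine synthetase ASNS by 0.61. The transporter subunits SLC3A2 and SLC7A11 fell by 0.92 and 0.32. ATF5 rose by 0.51, alone in the list.

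A composite ATF4-C/EBP string, TGATGNAA on either strand, was in 4 of 18 promoter windows of this list (22.2%, against 3.67% of all promoters and 1.56% of those of tested genes). The CHAC1 stretch is at chr15:40953221-40953320 and the ATF3 stretch at chr1:212565170-212565269, both on the plus strand of GRCh38.p14, and capitals mark the string.
CHAC1: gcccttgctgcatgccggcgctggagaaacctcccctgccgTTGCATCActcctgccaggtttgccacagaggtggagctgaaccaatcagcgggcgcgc
ATF3: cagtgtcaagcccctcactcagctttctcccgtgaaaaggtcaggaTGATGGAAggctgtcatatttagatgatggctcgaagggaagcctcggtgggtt

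The aminoacyl-tRNA synthetases, several of which ATF4 also controls, fell in 11 of 20 cases and rose in 6. DARS fell by 0.89 (217.2 to 117.2 CPM), TARS by 0.64 and GARS by 0.62, and the phenylalanine enzyme subunits FARSA and FARSB rose by 0.51 and 0.49. Genes of the endoplasmic reticulum were mixed, with 9 of 22 lower, 4 higher and a median of -0.05. HERPUD1 and DNAJB9, which serve degradation of misfolded proteins, fell by 0.74 and 0.75, and the chaperone HSP90B1 fell by 0.43 from a control mean of 1419 CPM, whereas HYOU1 rose by 0.36. Serine and folate enzymes were also divided: SHMT2 and PSAT1 fell by 0.54 and 0.41, and TYMS, PSPH and MTHFD1L rose by 0.57, 0.46 and 0.41.

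Heat shock chaperones were divided. HSPH1, a nucleotide exchange factor, was at 64.0 to 84.2 CPM in CTRL sh, at 154.7 to 162.1 CPM with sh1 and at 219.9 to 229.9 CPM with sh2 (log2 fold change 1.31, SE 0.154). DNAJA1, HSPA8 and HSPA4 rose by 1.09, 0.76 and 0.55. HSPA1A, HSPA1B, HSPB1 and DNAJB1 fell by 1.58, 1.03, 0.86 and 0.74. HSPA1A and HSPA1B are near-identical copies between which reads can be split, and the third CTRL sh library held 25.3 CPM of HSPA1A against 11.4 and 9.08 CPM in the others. Over the list 8 of 18 rose and 5 fell. Proteasome subunits changed little, with 12 of 31 higher, 4 lower and a median of 0.05.

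**Figure D3:**
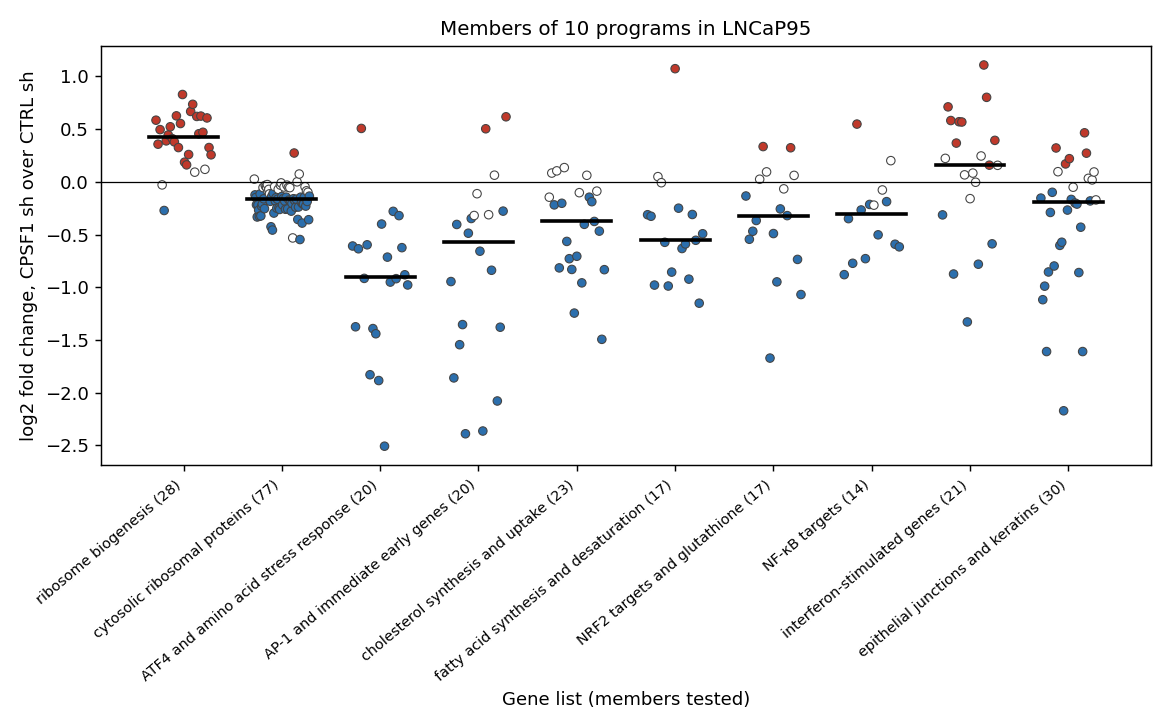
Points are tested members of 10 lists at their log2 fold change of CPSF1 sh over CTRL sh, filled red when called higher, blue when called lower and open when not called, and bars are list medians. The ATF4 points lie between -2.51 and 0.51 with a median of -0.90, and the ribosome biogenesis points have a median of 0.43.

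Immediate early genes, which encode unstable mRNAs induced by growth factors and stress, fell in 14 of 20 tested cases (70%) and rose in 2, with a median of -0.57. A further 6 members, EGR1 and FOSB among them, did not pass the filter. FOS, a partner of JUN in AP-1, was at 59.0, 43.6 and 51.2 CPM in CTRL sh, at 15.3, 16.5 and 11.6 CPM with sh1 and at 4.09, 4.28 and 4.64 CPM with sh2. The hairpins did not overlap each other, and the pooled log2 fold change was -2.39 (SE 0.332). JUND fell by 2.36 from a control mean of 493.9 CPM and the orphan receptor NR4A1 by 2.08. The MAPK phosphatases DUSP1, DUSP5 and DUSP6 fell by 1.86, 1.54 and 1.35, and the mRNA decay factor ZFP36 fell by 1.38. JUN and MYC were at -0.11 and 0.06 and were not called, and ZFP36L2 and KLF10 rose by 0.62 and 0.50.

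The kinase and cytokine signaling list held PIM1, the largest fall under the naming rule. PIM1, a survival kinase downstream of STAT factors (chromosome 6, 37137979 to 37143202 on GRCh37), was at 262.7, 214 and 248 CPM in CTRL sh, at 21.2, 22.4 and 16.4 CPM with sh1 and at 11.3, 9.96 and 12.1 CPM with sh2. PIM3 and PIM2 fell by 1.24 and 0.28. Among stress sensors, GADD45B fell from a mean of 60.7 to 6.52 CPM (log2 fold change -3.17, SE 0.189) and GADD45A fell by 1.25. In all 10 of 19 members fell and 2 rose, SOCS4 by 0.45 and JAK2 by 0.29. NF-κB targets fell in 10 of 14 tested cases and rose in 1, with a median of -0.31. BCL3 fell by 0.88, the inhibitor NFKBIA by 0.73 and the apoptosis inhibitor BIRC3 by 0.77, and NFKB1, the subunit precursor, rose by 0.55.

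**Figure D4:**
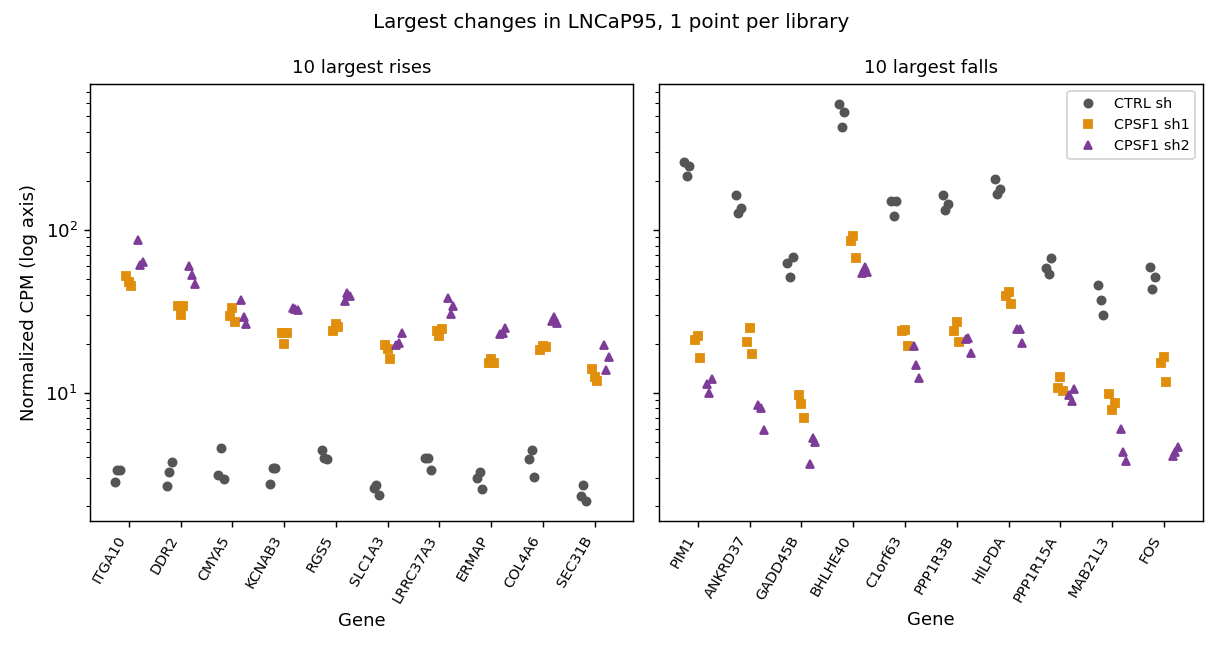
Each point is the normalized CPM of 1 library on a log axis for the 10 genes with the largest rises (left) and the 10 with the largest falls (right), with CTRL sh as circles, sh1 as squares and sh2 as triangles. The knockdown points lie above all controls on the left and below all controls on the right, as the choice of these genes required. PIM1 was at 214 to 262.7 CPM in the controls and 9.96 to 22.4 CPM with knockdown.

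The largest rises started from low control levels. ITGA10, an integrin that binds collagen (chromosome 1, 145524891 to 145543868 on GRCh37), was at 2.82, 3.33 and 3.33 CPM in CTRL sh, at 51.9, 47.8 and 44.9 CPM with sh1 and at 86.0, 60.9 and 63.0 CPM with sh2. DDR2, a collagen receptor tyrosine kinase (chromosome 1, 162601163 to 162757190), went from 2.68, 3.23 and 3.73 CPM to 30.1 to 33.9 CPM with sh1 and 46.3 to 59.8 CPM with sh2. Next were CMYA5 (3.10), the potassium channel subunit KCNAB3 (3.10), the G protein regulator RGS5 (2.95), the glutamate transporter SLC1A3 (2.92), LRRC37A3 (2.92), ERMAP (2.72), the basement membrane collagen COL4A6 (2.61) and SEC31B (2.60), each as a log2 fold change and with control means between 2.39 and 4.10 CPM. LRRC37A3 belongs to a family of similar copies, which makes its count uncertain. After PIM1, the largest falls were ANKRD37 (-3.28), GADD45B (-3.17), the clock and hypoxia repressor BHLHE40 (-2.91), the splicing-related gene C1orf63 (-2.88), the glycogen phosphatase subunit PPP1R3B (-2.73), the lipid droplet gene HILPDA (-2.55), PPP1R15A (-2.51), MAB21L3 (-2.46) and FOS (-2.39). Their control means ran from 37.5 CPM for MAB21L3 to 519.7 CPM for BHLHE40.

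Of the 10 largest rises, 3 lay within 10 kb downstream of another tested gene on the same strand, and 0 of the 10 largest falls did. Among these, CMYA5 began 3229 bases after PAPD4 and KCNAB3 542 bases after TRAPPC1. These upstream genes had log2 fold changes of -0.47 and -0.28. Among all tested genes 15.1% had such a neighbor, compared with 18.9% of 333 genes called more than 2-fold higher and 13.5% of 266 called more than 2-fold lower. Counts on exons do not show where a transcript began, and the part of upstream transcripts in these rises was not tested.

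Lipid synthesis fell. Of 23 tested genes of cholesterol synthesis and uptake, 16 fell (69.6%), 0 rose by edgeR or DESeq2 at the adjusted threshold, and the median was -0.38. At an unadjusted p under 0.05, 1 gene was higher, and there were 3 rises when libraries were scaled by size alone. The sterol sensor INSIG1, which holds SREBP in the endoplasmic reticulum, was at 432.3, 387.6 and 418.3 CPM in CTRL sh, at 211.1 to 241.7 CPM with sh1 and at 119.6 to 132.7 CPM with sh2 (log2 fold change -1.25, SE 0.197). The sterol transporter STARD4 fell by 1.49, the demethylating oxidase MSMO1 by 0.96 and HMGCS1 by 0.56. SQLE was at -0.09 and was not called. A sterol response string, TCACNCCAC, was in 1 of 18 promoter windows of this list, that of SREBF2, which fell by 0.47, and in 1.15% of all promoters.

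Fatty acid genes fell in 14 of 17 tested cases (82.4%) and rose in 1, with a median of -0.55. SCD, which introduces the first double bond into fatty acids, was at 2036, 1924 and 2019 CPM in CTRL sh, at 1007 to 1092 CPM with sh1 and at 732.6 to 757.4 CPM with sh2 (-1.15, SE 0.121). FASN, the fatty acid synthase, fell by 0.92 from a control mean of 3308 CPM. ELOVL1 and ACSL1 fell by 0.99 and 0.98, the desaturases FADS1 and FADS2 by 0.63 and 0.59, and the transcription factor SREBF1 by 0.49. ELOVL6, an elongase of palmitate, rose by 1.07 (18.8 to 39.7 CPM), against the rest of the list.

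Changes in mitochondrial genes were small, and their balance moved with the scaling. In the nuclear oxidative phosphorylation list 30 of 72 fell and 4 rose with a median of -0.08, which turned to 0.0074 with library size scaling alone. NDUFS5 and NDUFA7 fell by 0.73 and 0.69. In the citric acid cycle list 14 of 25 fell and 5 rose, which became 9 and 9 with library size scaling alone. The subunits of isocitrate dehydrogenase moved apart, with IDH3A up by 0.73 and IDH3G down by 0.70, and OGDH rose by 0.59. Of 13 mitochondrially encoded mRNAs 7 fell, MT-ND1 the most at 0.31, and MT-ND6, encoded on the opposite strand from the others, rose by 0.85. The count of falls was 4 without CTRL sh replicate 3, 4 with library size scaling alone and 11 with sh1 alone, and the list median was -0.26 with sh1 and -0.08 with sh2. Pentose phosphate genes showed 4 rises, led by PGD (0.54), and 3 falls, led by RPE (-0.44).

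NRF2 targets, which detoxify electrophiles and supply glutathione, fell in 11 of 17 tested cases (64.7%) and rose in 2, with a median of -0.32. HMOX1, heme oxygenase, was at 49.0 to 57.6 CPM in CTRL sh, at 20.3 to 21.4 CPM with sh1 and at 11.2 to 12.4 CPM with sh2 (-1.67, SE 0.18). UGDH, which makes the sugar donor for glucuronidation, fell by 1.07, NQO1 by 0.95, TXNRD1 by 0.74 and NFE2L2 (NRF2) by 0.49, and GSR rose by 0.34. In steroid metabolism the reductases SRD5A1 and SRD5A3 fell by 0.90 and 0.79 and the cortisol-inactivating HSD11B2 by 0.86, whereas the glucuronidating UGT2B10 and UGT2B28, which have similar copies, rose by 1.44 and 0.35. Of 15 polyamine and methionine genes 8 fell and 4 rose: the catabolic SAT1 and the synthetic AMD1 fell by 1.05 and 0.64, while ODC1 and SRM, also of the synthetic route, rose by 0.46 and 0.60. Lysosome and autophagy genes fell in 15 of 28 cases and rose in 5. GABARAPL1 fell by 1.02 and NPC2 by 0.63, and TFEB, a regulator of lysosomal genes, rose by 0.61.

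Splicing genes were also described. Of 29 SR and hnRNP splicing factors 14 rose and 5 fell (median 0.14, at 0.04 with sh1 and 0.20 with sh2), with HNRNPM, HNRNPAB and HNRNPA3 up by 0.83, 0.80 and 0.70 and SRSF4 and HNRNPC down by 0.49 and 0.27. Without CTRL sh replicate 1 only 9 rose, and without CTRL sh replicate 3 only 3 fell. Of the 8 kinases that phosphorylate splicing factors 7 fell and 1 rose. CLK1 was at 66.6 to 80.9 CPM in CTRL sh and 26.4 to 35.4 CPM in CPSF1 sh (-1.31, SE 0.0906), CLK3 fell by 0.87 and DYRK1A by 0.57, and SRPK1 rose by 1.09. RNA exosome, nonsense-mediated decay and deadenylation genes were near the background, with 8 higher and 9 lower of 30. UPF3B fell by 0.79 and its relative UPF3A rose by 0.39.

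Of the p53 targets 51.9% were called, and of the BCL2 family 53.3%, against 66.9% of all tested genes. Both lists are small and share BAX and BBC3. With library size scaling alone 10 p53 targets rose and 6 fell, and in the BCL2 family 6 rose and 4 fell. Of 27 p53 targets 7 rose and 7 fell (25.9% each, against 33.2% and 33.7% of all tested genes). SPATA18, a mitochondrial quality control gene, rose by 1.40, C12orf5 (TIGAR) by 0.77 and the pore-forming BAX by 0.73, whereas GDF15, a stress cytokine, fell from a control mean of 1775 CPM to 694.1 CPM (-1.35), CCNG1 by 0.84 and BTG2 by 0.81. CDKN1A, the p21 cell cycle inhibitor, rose by 0.23. In the BCL2 family 4 of 15 tested members rose and 4 fell (26.7% each). PMAIP1 (NOXA), BCL2L2 and BBC3 (PUMA) fell by 1.23, 0.76 and 0.68, and BCL2 and BCL2L11 rose by 0.54 and 0.33. BCL2 was at 0.36 and not called without CTRL sh replicate 2 (adjusted p = 0.113), nor BBC3 without CTRL sh replicate 3 (adjusted p = 0.0574).

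Interferon-stimulated genes rose in 9 of 21 tested cases and fell in 5, with a median of 0.16, and 14 further members were below the filter. The double-stranded RNA sensor OAS3 was at 30.4 to 33.4 CPM in CTRL sh and 62.1 to 78.0 CPM in CPSF1 sh (1.11, SE 0.0854), and PARP9 and its partner DTX3L rose by 0.80 and 0.71. IRF1, IFI35 and ISG20 fell by 1.33, 0.87 and 0.78. An interferon response string, GAAANNGAA, was in 10 of 17 promoter windows of the list (58.8%, against 8.29% of all). Antigen presentation had 4 rises (25%) and 6 falls (37.5%) among 16, against 33.2% and 33.7% of all tested genes. The peptide transporters TAP1 and TAP2 rose by 0.55 and 0.62, and HLA-B fell by 0.75. HLA counts depend on how well the alleles of a line match the reference.

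Epithelial genes fell more often than they rose, and matrix genes moved both ways. Of 30 tested junction and keratin genes 19 fell (63.3%) and 5 rose, with a median of -0.19. ELF3, an epithelial transcription factor, was at 240.7, 193.5 and 254 CPM in CTRL sh and at 44.3 to 59.5 CPM in CPSF1 sh (-2.17, SE 0.0921). The tight junction proteins CLDN4 and OCLN each fell by 1.61, KRT19 by 0.86, EHF by 0.57 and KRT8 by 0.43. CDH1 (E-cadherin) fell by 0.15, and EPCAM rose by 0.17 and PKP2 by 0.47. Of 16 mesenchymal genes 4 passed the filter, so the list gives only single values: SNAI2, TCF4 and VIM rose by 1.38, 1.37 and 0.75 and SNAI1 fell by 0.64 but was not called without CTRL sh replicate 1 (adjusted p = 0.101). Fibronectin, FN1, was at 659.7, 590.8 and 595.9 CPM in CTRL sh, at 1796 to 1851 CPM with sh1 and at 2714 to 2838 CPM with sh2 (1.90, SE 0.169). COL4A5 rose by 0.89, and COL18A1 and COL6A2 fell by 1.06 and 0.94. Over the 15 tested collagens and matrix proteins 5 rose (33.3%) and 7 fell (46.7%), with a median of -0.007. Among 14 integrins and collagen receptors 4 rose (28.6%) and 3 fell (21.4%), both below the shares of all tested genes. DDR1 fell by 0.83 while DDR2 rose, and ITGB4 and ITGA5 fell by 0.90 and 0.63. Among the fibroblast and smooth muscle markers ACTA2 rose and COL1A1 fell, as given above. COL3A1 was at 0.0899 to 0.289 CPM in CTRL sh and 0.55 to 1.91 CPM in CPSF1 sh, PDGFRB was at 1.62 to 2.03 and 2.79 to 4.94 CPM, COL1A2 did not exceed 0.0683 CPM and DCN and LUM had no count. The part of other cells in these rises was not tested.

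Neuronal and neuroendocrine genes rose in 7 of 13 tested cases and fell in 3, with 20 members below the filter. The vesicle protein SYT4 was at 186.3 to 237.4 CPM in CTRL sh, at 689.8 to 758.4 CPM with sh1 and at 847.1 to 865.8 CPM with sh2 (1.88, SE 0.0997). RTN1 and PEG10 rose by 2.56 and 0.81, ENO2, a glycolytic enzyme as well as a neuronal marker, fell by 1.88, and the repressor REST fell by 0.26. Among defining neuroendocrine markers CHGA and INSM1 stayed at or below 0.247 CPM in every library, and SYP was at 1.88 to 2.35 CPM in CTRL sh and 1.58 to 2.39 CPM in CPSF1 sh.

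Growth factor pathways were mixed. EGFR fell from 972.6 to 550.8 CPM on average (-0.82, SE 0.116), its feedback inhibitor ERRFI1 by 1.12 and ERBB3 by 0.47, and ETV1 rose by 0.60. In the insulin and IGF list 7 of 17 rose (41.2%) and 6 fell (35.3%), against 33.2% and 33.7% of all tested genes. IGFBP5 rose by 2.04 and IGF1 by 1.06, and IRS2, FOXO3 and IGF1R fell by 1.05, 0.82 and 0.52. In the TGF-β, BMP and YAP list 4 of 16 rose (25%) and 5 fell (31.2%), both below the shares of all tested genes. SMAD6 and TGFBR3 rose by 1.24 and 1.18, and TGIF1, TGFB1 and CYR61 fell by 1.24, 1.204 and 1.18. Each hairpin fitted alone gave 8 falls in this list. Its rises ranged from 3 to 4 over the fits that left out a library. Circadian clock genes fell in 9 of 19 cases and rose in 5: RORA, NFIL3 and DBP fell by 1.17, 1.10 and 1.08, and HLF and PER3 rose by 1.56 and 0.86. Among nuclear receptors and lineage factors 6 of 24 rose (25%) and 9 fell (37.5%), against 33.2% and 33.7% of all tested genes. PPARG and VDR, the vitamin D receptor, rose by 1.41 and 1.23 from low levels (3.22 and 14.2 CPM), HOXB13 rose by 0.27, and FOXA1, PPARA and NR3C1 fell by 0.23, 0.86 and 0.65. Zinc finger genes of chromosome 19 were below the background in both directions, with 33 of 181 higher and 51 lower, and their median of -0.03 turned to 0.06 with library size scaling alone. Of the 3 metallothioneins tested with both hairpins pooled 0 were called by edgeR or DESeq2, and 0 had an unadjusted p under 0.05. The hairpins went opposite ways, with list medians of 0.294 for sh1 and -0.478 for sh2. Fitted alone, sh1 gave 2 metallothioneins called higher and sh2 gave 3 called lower.

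**Figure D5:**
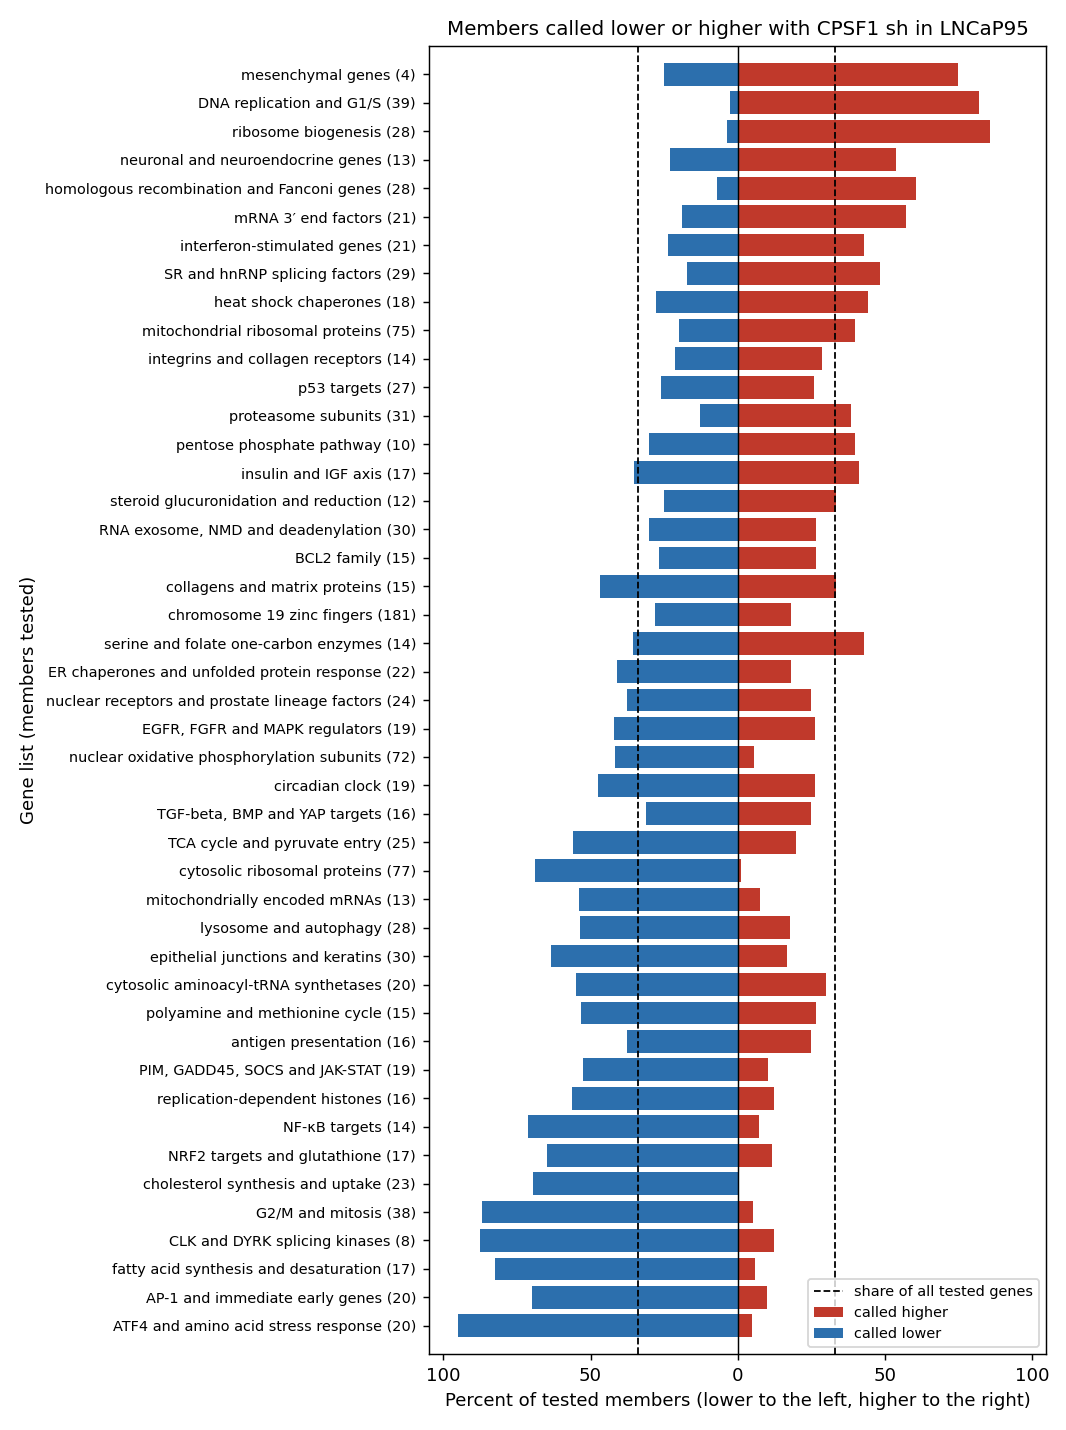
Bars give the percent of tested members of each list other than metallothioneins called lower (left, blue) and higher (right, red), and dashed lines mark the shares over all 11143 tested genes (33.7% lower and 33.2% higher). The ATF4 list reaches 95% to the left and ribosome biogenesis 85.7% to the right.

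Some smaller counts turned on 1 library. Without CTRL sh replicate 3, falls among proteasome subunits went from 4 to 2 and rises among endoplasmic reticulum genes from 4 to 2, as they also did without CTRL sh replicate 2 and CPSF1 sh2 replicate 2, respectively. Rises among lysosome genes went from 5 to 3 without CTRL sh replicate 2 or 3, among BCL2 family genes from 4 to 2 without CTRL sh replicate 2 and among clock genes from 5 to 3 without CTRL sh replicate 1. Rises among NRF2 targets went from 2 to 1 in 7 of the 9 fits that left out a library, and 1 cholesterol gene rose in 3 of them. Rises among NF-κB targets went from 1 to 2 without CPSF1 sh2 replicate 1. With library size scaling alone, rises went from 4 to 8 among integrins, from 5 to 8 among epithelial and lysosome genes, from 6 to 10 among nuclear receptors and from 8 to 13 among RNA decay genes.

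Gene structure moved with direction to a small extent. Genes were split into 4 classes at the quartiles of each property, and ties made the exon block classes unequal. In the class with the shortest span on GRCh37 (up to 13626 bases) 28.2% rose and 37.3% fell, and in the longest class (from 78089 bases) 40.4% rose and 31% fell, with medians of -0.05 and 0.06. Summed exon length gave 26.8% higher and 36.8% lower in its lowest class and 39.1% and 31.1% in its highest, and genes with at most 7 exon blocks (3175 genes) had 28.9% higher and 35.1% lower. By mean level over all 9 libraries, the lowest class had 34.7% higher and 24.3% lower and the highest class 29.8% and 40.8%. These properties share genes with the lists above, and their part in the list counts was not tested.

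The strongest changes were compared with LNCaP and 22Rv1 cells carrying the same hairpins, with the difference in knockdown effect tested across 27 libraries for the 5 largest rises and 5 largest falls that passed the filter in all of them. These genes were chosen for their size in LNCaP95, so the sizes of the differences are not independent of that choice. The other lines were grown with phenol red and selected at a higher puromycin dose, so line, medium and dose cannot be told apart. The paper also states that the hairpins may not have worked equally well in each line. The depth of CPSF1 knockdown was not compared between lines here. PIM1 had log2 fold changes of -3.93 in LNCaP95, -0.87 in LNCaP and -0.35 in 22Rv1, and the differences of -3.04 (SE 0.231) and -3.57 (SE 0.21) passed the test. GADD45B, C1orf63, PPP1R3B and HILPDA also fell further in LNCaP95 than in either other line, by 1.88 to 2.86 on the log2 scale. SLC1A3 and ERMAP rose further than in LNCaP (differences 1.21 and 2.09) and 22Rv1 (2.83 and 1.91). For KCNAB3, RGS5 and LRRC37A3 the difference from LNCaP was not called (0.63, 0.52 and 0.57, with SE of 0.375, 0.328 and 0.29), while the difference from 22Rv1 was (1.01, 2.32 and 1.76). The KCNAB3 difference from 22Rv1 was not called without CTRL sh replicate 1 (0.90, adjusted p = 0.0707).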

How the data were processed

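The deposited table holds raw exon counts per gene, made by the authors from stranded, poly(A)-selected, paired-end libraries. The submitters' processing notes name HISAT2 2.1.0, Subread 2.0.3 and GRCh37. The authors' exon length per gene (another deposited column, in bases) was used only as a gene property. For LNCaP95, 3 CTRL sh libraries were compared with 6 CPSF1 sh libraries, both hairpins pooled, with edgeR 4.0.16 in R 4.3.3: genes above 2 CPM in all 9 libraries, TMM scaling, the quasi-likelihood F test and Benjamini-Hochberg adjustment, called at an adjusted p under 0.05. SE is the absolute log2 fold change over the square root of F. CPM values are per 1e6 counts of tested genes after TMM scaling. Differences between lines came from an interaction fit over 27 libraries. The steps were tested on simulated counts.

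The members and lists were chosen with earlier results of these data known, so list counts are descriptions with no test, read against the share of all tested genes called. Genes named are CPSF1, the 10 largest called rises and 10 largest called falls with all knockdown libraries on one side of the controls, up to 3 called members each way per list, and cell type markers. Other list members were named as examples after their values were seen. Older symbols were matched through RefSeq synonyms; SRD5A2, UHRF1 and NEFL were not analysed here. Libraries held 10697514 to 15904518 counts. DESeq2 1.42.0 and other filters, scalings, designs and left-out libraries were tried as alternatives. Some genes are not reported here.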

Additional observations from a re-analysis of the deposited data

Results flagged for a closer look

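The knockdown effect in LNCaP95 differed from that in another line, by an interaction test in edgeR with Benjamini-Hochberg adjustment, for 17 of the 20 tested pairs of gene and line, which were the 5 largest rises and 5 largest falls of LNCaP95 among genes passing the filter in all libraries. The genes were chosen for their size in LNCaP95, so the sizes are not independent of that choice. The depth of CPSF1 knockdown in each line was not compared. Against LNCaP the differences in log2 fold change were 1.21 for SLC1A3, 2.09 for ERMAP, -3.04 for PIM1, -2.45 for GADD45B, -2.47 for C1orf63, -1.99 for PPP1R3B and -1.88 for HILPDA. Against 22Rv1 they were 1.01 for KCNAB3, 2.32 for RGS5, 2.83 for SLC1A3, 1.76 for LRRC37A3, 1.91 for ERMAP, -3.57 for PIM1, -2.73 for GADD45B, -2.86 for C1orf63, -2.54 for PPP1R3B and -2.51 for HILPDA. The smallest of these, KCNAB3 against 22Rv1, had an adjusted p of 0.0212.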

How the results depend on the processing

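Requiring more than a 2-fold change beside the adjusted p left 333 genes higher, 266 lower and 5.38% of tested genes called. Leaving out each library in turn gave 3258 to 3709 genes higher, 3318 to 3751 lower and 58.9% to 66.9% called. The KCNAB3 difference from 22Rv1 ranged from 0.8998 to 1.095 and was not called without CTRL sh replicate 1 (adjusted p = 0.0707), and the cause was not tested. The other 259 values of the line differences under alternatives kept direction and side of the threshold. Without TMM factors the split was 4685 higher and 2850 lower. It was 3610 and 3613 with sh1 alone, 4001 and 4039 with sh2 alone, 3609 and 3677 with DESeq2, and 4665 and 4345 of 17391 with no filter beyond 1 count. Of 254 named genes 238 kept direction and call in every alternative that tested them. The 10 largest rises had control means below 5 CPM, so the filter of above 5 CPM in all 9 libraries left them untested. The medians of the replication, mitotic, ATF4, immediate early, cholesterol, fatty acid and ribosome biogenesis lists kept their sign in all 20 alternatives, while that of the collagens changed sign in 7 and of the metallothioneins in 10. With the hairpins fitted as separate groups, 4078 genes were higher and 4141 lower. With the replicate number as a block, 3523 genes were higher and 3557 lower. Deviations of same-numbered libraries correlated at -0.233 to 0.275. With 3 libraries per group these values cannot show whether same-numbered libraries shared a culture, an infection or a batch. Depth limits genes near 2 CPM, and those below the filter in any library were not tested.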

Other observations

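The hairpins lowered CPSF1 alike, and some other genes were apart between them. IGFBP3, a binding protein of insulin-like growth factors, was at 46.2, 46.5 and 41.7 CPM in CTRL sh, at 76.2, 87.2 and 79.4 CPM with sh1 and at 414.4, 425.2 and 383.6 CPM with sh2, so its pooled log2 fold change of 2.44 (SE 0.64) stood between 0.85 for sh1 and 3.18 for sh2. The metallothionein MT2A had log2 fold changes of 0.26 with sh1 and -0.42 with sh2, and MT1X of 0.59 and -0.48. In the metallothionein list 2 members were called higher with sh1 alone and 3 lower with sh2 alone. These genes were chosen after their values were seen. The difference between hairpins was not tested, and both share the same control libraries.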
